A study of Mus musculus with 16 samples.

Results

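The genes described here carry out the uptake and oxidation of fatty acids. They were taken from a list of 36 genes, and 35 of these were analysed out of 21833 protein-coding genes. Hsd17b4 lies on chromosome 18, where the lists used hold 0 regions, and was not analysed here. A region was given to a gene when its summit lay nearest to a transcription start of that gene among protein-coding genes of the mouse mm9 assembly, and within 50 kb of it. The genes were grouped by step into uptake and binding, activation to acyl-CoA, the carnitine shuttle, mitochondrial oxidation, electron transfer, peroxisomal oxidation and thioesterases. The hormone gene Fgf21 stood alone.

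Fatty acids enter the absorptive cell through membrane transporters, are held by small binding proteins in the cytosol and are joined to coenzyme A before use. Carnitine carries long chains into the mitochondrion, where a cycle of dehydrogenases, a hydratase and a thiolase shortens them and hands electrons to the respiratory chain. Peroxisomes shorten very long and branched chains and pass on the products. Suckling animals live on a fat-rich diet, and many of these genes are known targets of the nuclear receptor PPARα, which binds repeats of AGGTCA together with RXR. NCoR1 is a corepressor that brings histone deacetylase activity to nuclear receptors. H3K27ac and H3K9ac mark active enhancers and promoters, H3K4me1 marks enhancers, H3K4me3 marks promoters, and H3K9me3 and H3K27me3 mark silenced chromatin.

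Chromatin came from the epithelial cells of the jejunum of C57BL/6 mice at postnatal day 12. The groups were wild-type mice (WT, F/FUN) and mice that lack NCoR1 in the intestine (KO, ΔIECUN). Both names carry the ending UN, which the labels do not explain, and regions of several lists lie on an added reference sequence named UGT1A, not on a mouse chromosome. The labels name neither the Cre driver nor the number of animals behind a library. Of the 16 samples, 12 were ChIP libraries, with 1 library for each of 6 marks in each genotype, and the 4 inputs were not analysed here.

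Each list of regions compares the libraries of the 2 genotypes for a mark, and a region is called KO-higher or WT-higher by the library with more tags (aligned reads). With 1 library a group there is no replicate error, and every difference below describes these libraries only. Depth ranged from 27946003 to 47976125 tags per library, and from 23925163 to 32444815 once duplicates were gone. At each region the higher library has a pileup (the tags over the summit). The lower library has a local background, recovered from the authors' fold, which is the ratio of the pileup plus 1 to that background plus 1. A low or absent region says nothing of the level of a mark, because places where the libraries are alike are not listed. The levels of tissue markers could therefore not be checked. Among marker genes, KO-higher H3K27ac regions lay at 7 of 9 epithelial genes, 0 of 9 immune genes, 0 of 9 stromal genes, 1 of 8 secretory genes and 1 of 4 hepatocyte genes. Vil1, the gene of the brush-border protein villin, had KO-higher folds of up to 12.7 in H3K27ac, 11.5 in H3K9ac, 50.9 in H3K4me3 and 71 in H3K9me3. Their part in the results below was not tested. The targeted gene, Ncor1, had 1 region, KO-higher in H3K27ac with a fold of 6.04. Ncor1 is not in the authors' RNA table, so the deletion was not checked here.

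Sequences are shown at the highest-fold KO-higher summits of some steps. The median folds of KO-higher regions at these genes were 2.68 for H3K27ac and 2.86 for H3K9ac, so these windows are not typical. The following 300-base windows, on the plus strand of mm9 (NCBIM37), hold the highest-fold KO-higher summit of peroxisomal oxidation (Crot intron, chr5:8984473-8984772, fold 6.26), mitochondrial oxidation (Acadl intron, chr1:66903201-66903500, fold 5.44) and uptake (outside Cd36, at -30941 bp from its start, chr5:17425568-17425867, fold 4.81). Capitals mark AGGTCA or its reverse complement TGACCT, the element that PPARα and related receptors recognise.
Crot H3K27ac: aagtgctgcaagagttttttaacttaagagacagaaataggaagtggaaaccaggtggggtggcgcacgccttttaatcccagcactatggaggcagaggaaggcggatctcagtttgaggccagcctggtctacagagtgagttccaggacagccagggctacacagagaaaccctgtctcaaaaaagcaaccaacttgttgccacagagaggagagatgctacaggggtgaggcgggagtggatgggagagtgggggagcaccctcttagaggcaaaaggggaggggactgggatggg
Acadl H3K9ac: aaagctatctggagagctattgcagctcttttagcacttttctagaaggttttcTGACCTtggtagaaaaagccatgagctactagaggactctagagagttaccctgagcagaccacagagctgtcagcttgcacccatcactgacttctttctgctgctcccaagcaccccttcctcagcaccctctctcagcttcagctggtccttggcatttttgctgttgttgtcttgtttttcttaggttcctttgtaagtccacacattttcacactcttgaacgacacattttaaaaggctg
Cd36 H3K27ac: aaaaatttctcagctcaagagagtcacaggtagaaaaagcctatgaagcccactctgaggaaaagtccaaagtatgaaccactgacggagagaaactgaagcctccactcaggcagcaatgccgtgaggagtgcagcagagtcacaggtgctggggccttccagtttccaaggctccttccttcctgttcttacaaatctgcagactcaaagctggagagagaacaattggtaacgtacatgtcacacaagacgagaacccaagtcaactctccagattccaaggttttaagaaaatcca
The element stood in the Acadl window and not in those of Crot and Cd36. Parts of the Crot and Cd36 windows are repeated elsewhere in the genome, while all 50-base words around the Acadl summit were unique. Of the 50-base words around the Crot summit 86.1% were unique, and the most frequent word had 9651 copies. The share was 64.9% for Cd36. Reads from such words cannot be placed with certainty, and their part in these folds was not tested.

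Acetylation at the fatty acid genes differed mostly toward the KO library. H3K27ac was KO-higher at 20 of 35 genes (57.1%), where 11.5% of all protein-coding genes had such a region. H3K9ac was KO-higher at 15 of 35 (42.9%), against 4.0% of all genes. In the other direction, 3 of 35 genes (8.57%) had a WT-higher H3K27ac region, against 7.53% of all genes, and 1 of 35 (2.86%) had a WT-higher H3K9ac region, against 7.58%. The share with WT-higher H3K27ac was thus near the background, and both KO-higher shares stood above it. The list of genes was chosen with earlier results of these data known. Among the 7847 genes with a region of any active mark in any direction, H3K27ac was KO-higher at 32.1% and H3K9ac at 11.1%. Of the 23 fatty acid genes on that narrower background, 20 were counted for the first of these marks and 15 for the second. A gene can enter this background through the same KO-higher acetyl region that is then counted. These shares are therefore partly set by the filter, and no conclusion is drawn from them. A limit on base composition was also tried. Limited to KO-higher regions at least as GC-rich as the median WT-higher region of the mark, H3K27ac lay at 7 of 35 genes (all genes 2.29%) and H3K9ac at 0 of 35 (all genes 0.371%). The limit left 658 of 7094 H3K27ac regions and 87 of 1882 H3K9ac regions. So few regions reach fewer genes in any case, so the fall does not show a dependence on base composition. At 0.371% of all genes, 0 of 35 cannot tell the fatty acid genes from the rest. For H3K27ac, 7 of 35 still stood above the share of all genes. With -log10 q of at least 5, H3K9ac lay at 9 of 35 (25.7%, all genes 2.75%).

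Regions of the remaining marks lay at few of the genes. WT-higher H3K4me1 lay at 4 of 35 genes (11.4%, all genes 7.57%) and WT-higher H3K4me3 at 2 of 35 (5.71%, all genes 15.2%). No fatty acid gene had a region of KO-higher H3K4me3 (all genes 0.298%), KO-higher H3K9me3 (2.27%), WT-higher H3K9me3 (1.08%) or WT-higher H3K27me3 (0.861%). The lists of KO-higher H3K4me1 and KO-higher H3K27me3 repeat the WT lists and could not be used. No lean toward either genotype is therefore read for H3K4me1 or H3K27me3. In all, 23 of 35 genes (65.7%, all genes 38.4%) had 115 regions.

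**Figure D1:**
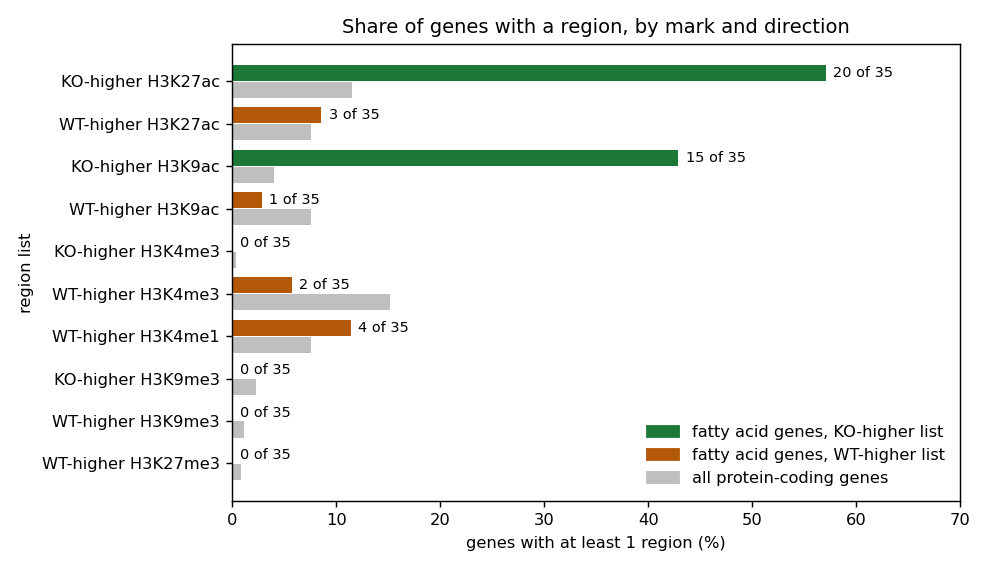
Share of the 35 fatty acid genes (coloured bars) and of all 21833 protein-coding genes (grey bars) with at least 1 region in each list, in percent. The coloured bars of KO-higher H3K27ac (57.1%) and KO-higher H3K9ac (42.9%) are the longest, and the bar of WT-higher H3K4me3 (5.71%) is shorter than its grey bar (15.2%).

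Many of the genes had several regions. KO-higher H3K27ac gave 81 regions at these genes. At least 2 of them lay at 17 of 35 genes (48.6%, all genes 5.82%), at least 4 at 12 genes (34.3%, all genes 2.26%) and at least 8 at 3 genes (8.57%, all genes 0.522%), which were Fabp1, Ehhadh and Crot. Both acetyl marks were KO-higher at 14 of 35 genes (40.0%, all genes 3.28%). Of 23 KO-higher H3K9ac regions at the genes, 12 (52.2%) overlapped H3K27ac regions of the same direction, which 38.9% of all such regions did. Conversely, 12 of 81 H3K27ac regions (14.8%) shared bases with an H3K9ac region, against 10.2% of all. None of the KO-higher regions at these genes overlapped a WT-higher region of any mark. Few WT-higher regions lay at these genes, and the share over the whole lists was not counted. No trait of these genes is read from it.

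In fold, the regions at these genes were much like the rest of their lists. In place this held for H3K27ac, while H3K9ac regions lay more often in introns and less often between genes. The median fold of the KO-higher H3K27ac regions was 2.68, against 2.52 over the whole list, and that of H3K9ac was 2.86 against 2.91. For H3K27ac, 9.88% lay within 1 kb of a start (whole list 10.3%), 54.3% in introns (48.4%) and 34.6% between genes (35.6%). For H3K9ac, 21.7% lay within 1 kb of a start (17.6%) and 65.2% in introns (50.3%). The fatty acid genes thus differed from all genes more in how often they had a region than in its fold or place. This was not particular to them. Epithelial markers had KO-higher H3K27ac at 7 of 9 genes (77.8%) and KO-higher H3K9ac at 6 of 9 (66.7%).

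**Figure D2:**
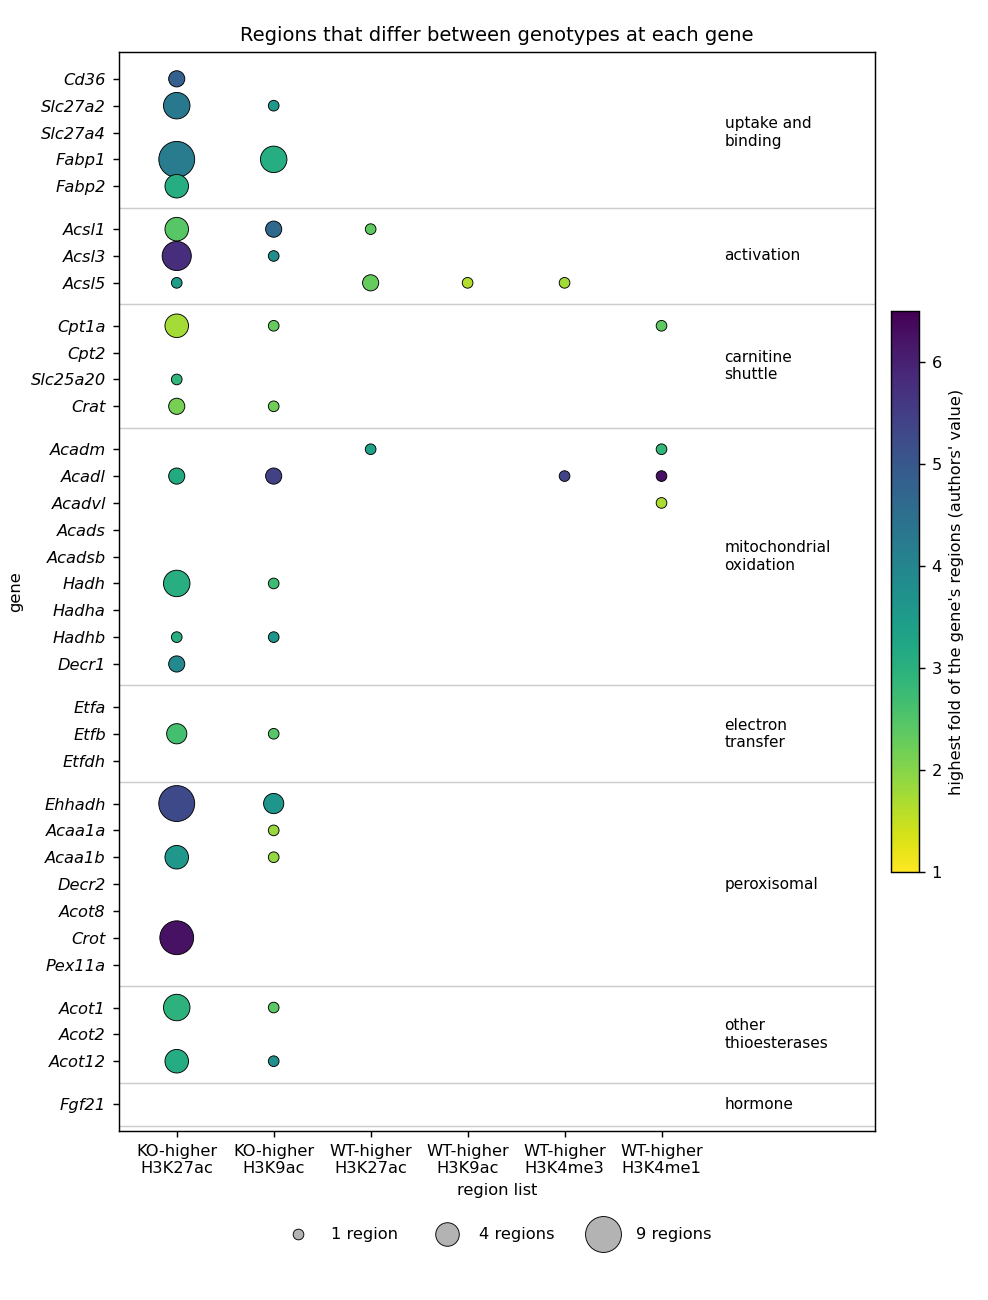
Regions at each of the 35 genes (rows, grouped by step) in the 6 lists that hold any (columns). Dot area grows with the number of regions, and colour gives the highest fold of the gene's regions in that list. The left-hand pair of columns holds most dots, with up to 9 regions at Fabp1 and Ehhadh, and 12 genes have no dot.

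Uptake and binding had KO-higher H3K27ac at 4 of 5 genes and KO-higher H3K9ac at 2 of 5, with no WT-higher region. Fabp1 (chr6:71149821-71155017, plus strand), which encodes the liver-type binding protein that enterocytes also make in quantity, had the most regions, 14 in all. Its 9 H3K27ac regions lay at -27360, -25356, -18658, -6210, -5015, 1404, 2269, 3991 and 5651 bp from the start. They were thus upstream of and within the gene, and the last lay just beyond its end. The KO pileups at these were 61, 31, 72, 41, 42, 78, 138, 97 and 58 tags, and the WT backgrounds 21.8, 7.38, 19.8, 8.93, 12.9, 28.8, 84.3, 44.7 and 16.9 tags. The folds were 2.72, 3.82, 3.50, 4.23, 3.09, 2.65, 1.63, 2.15 and 3.30. The region with the most tags, in an intron, had the lowest fold, and the upstream ones had fewer tags and higher folds. All 5 H3K9ac regions of Fabp1 lay within the gene, at 153, 884, 1427, 3254 and 3981 bp. There the KO library had 60.5, 70.4, 80.4, 57.8 and 68.6 tags against 24, 24, 29, 18 and 27 in WT, with folds of 2.46, 2.86, 2.71, 3.09 and 2.49. Those at 1427 and 3981 bp shared bases with H3K27ac regions. No upstream H3K9ac region of Fabp1 was listed.

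Slc27a2 (chr2:126378143-126413979, plus strand) encodes a transporter that also activates very long chains. Its 5 KO-higher H3K27ac regions, at 143, 6637, 7974, 11266 and 18131 bp, had 83, 48, 36, 60 and 33 tags in KO and 29.7, 16.9, 7.94, 21.8 and 6.95 in WT. The folds were 2.73, 2.74, 4.14, 2.67 and 4.28. The highest folds, 4.14 and 4.28, lay in introns where both libraries had the fewest tags. By -log10 q the region at 143 bp was the highest of these, at 11.2. An H3K9ac region at 2469 bp had 62.3 tags against 17, a fold of 3.52. Cd36 (chr5:17287508-17394777, minus strand), the membrane fatty acid translocase, had 2 H3K27ac regions and no other. The KO library had 42 tags at the upstream region printed above and the WT library 7.94. In an intron, 30800 bp from the gene's start and closer to an inner start, the values were 35 and 13.9 tags, a fold of 2.42. Fabp2, which encodes the intestinal-type binding protein, had 4 H3K27ac regions, all upstream, at -18287, -16855, -16459 and -4695 bp. Their KO values were 79, 117, 114 and 21 tags against 24.8, 57.6, 41.8 and 6.95 in WT, with folds of 3.10, 2.02, 2.69 and 2.77. Slc27a4, another transporter, had no region.

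All 3 activation genes, which encode long-chain acyl-CoA synthetases, had KO-higher H3K27ac, and Acsl1 and Acsl5 also had WT-higher H3K27ac. These were the only fatty acid genes with acetylation in both directions (5.71%, all genes 1.30%). Acsl3 (chr1:78654400-78703562, plus strand) differed in the KO direction only. Its 6 H3K27ac regions lay at -41305, -8877, -2208, 11447, 12195 and 40196 bp, with 22, 53, 99, 21, 30 and 38 tags in KO. The WT values were 8.93, 23.8, 34.7, 2.80, 4.96 and 12.9, and the folds 2.32, 2.18, 2.80, 5.78, 5.20 and 2.81. The regions with folds above 5 stood side by side in an intron, near an inner start, and had few tags. The H3K9ac region at 12200 bp, with 18.1 tags against 4.0 and a fold of 3.81, shared bases with the H3K27ac region at 12195 bp.

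Acsl1 (chr8:47556395-47621405, plus strand) had KO-higher H3K27ac at -22239, 7976, 11169 and 12679 bp, with 125, 66, 62 and 113 tags in KO. The WT values were 63.5, 28.8, 24.8 and 50.6, and the folds 1.95, 2.25, 2.44 and 2.21. Of the 50-base words around the third of these, 48.6% were unique. KO-higher H3K9ac lay at -22880 and -22266 bp, with 24.4 and 35.2 tags against 4.44 and 10 and folds of 4.67 and 3.29. The upstream place thus differed in both acetyl marks. At 31819 bp, in an intron further along the gene, WT had 64.5 H3K27ac tags against 27 in KO, a fold of 2.34.

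Acsl5 (chr19:55327859-55371117, plus strand) differed toward WT at its start and toward KO inside the gene. At the exonic place 672 to 692 bp from the start, WT had 189 H3K27ac tags against 128 in KO (fold 1.47). H3K9ac there was 204 against 124 (fold 1.64), and H3K4me3 was 142 against 80.4 (fold 1.76). The 3 regions share bases. A further WT-higher H3K27ac region at -1369 bp had 130 tags against 56, a fold of 2.30. At 11937 bp, in an intron, KO had 54 H3K27ac tags against 14.9 in WT, a fold of 3.46. This was the only place among the fatty acid genes where 3 active marks differed together, and it was WT-higher.

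The carnitine shuttle had KO-higher H3K27ac at 3 of 4 genes and KO-higher H3K9ac at 2 of 4. Its folds were low, with a median of 1.74 over 7 H3K27ac regions, of which 4 were at Cpt1a. Cpt1a (chr19:3323301-3385732, plus strand) makes acylcarnitines at the outer mitochondrial membrane and is the controlled step of the pathway. Its H3K27ac regions at 9729, 10600, 13784 and 21051 bp had 103, 133, 88 and 87 tags in KO against 64.5, 84.3, 50.6 and 49.6 in WT. The folds were 1.59, 1.57, 1.72 and 1.74. H3K9ac at 22984 bp was KO-higher with 40.6 tags against 17 (fold 2.31), and H3K4me1 at 22314 bp was WT-higher with 52 tags against 21.4 (fold 2.37). These intronic places with opposite directions lay near each other but did not overlap. Further along the gene, 6 more KO-higher H3K27ac regions had folds of 1.96 to 4.46. They lie inside Cpt1a but nearest to the start of Mtl5, and were not counted for Cpt1a.

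Slc25a20, the carnitine carrier of the inner membrane, had 1 region, KO-higher H3K27ac at 1302 bp with 56 tags against 18.9 and a fold of 2.87. Crat (chr2:30255991-30271333, minus strand), which handles short chains, had KO-higher H3K27ac at 5897 and 6754 bp, with 114 and 155 tags against 52.6 and 75.4. The folds were 2.15 and 2.04. H3K9ac at 6758 bp had 38.8 tags against 17 (fold 2.21) and overlapped the latter. Cpt2, which releases carnitine inside the mitochondrion, had no region by the rule used. A KO-higher H3K27ac region inside it, with a fold of 3.51, lies nearest to another gene's start.

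**Figure D3:**
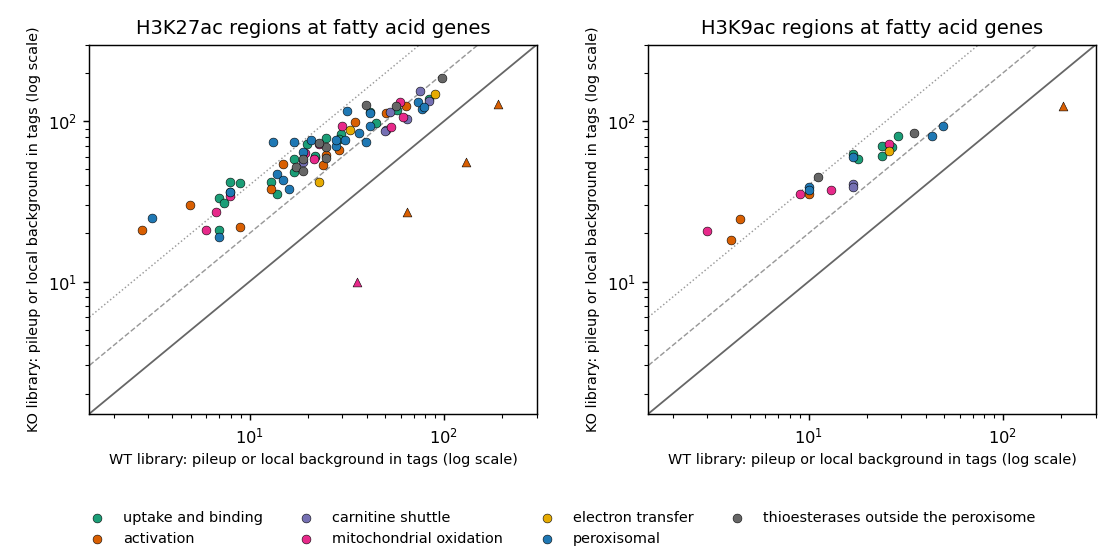
KO against WT values of each H3K27ac region (left) and H3K9ac region (right) at the fatty acid genes, in tags on log scales, coloured by step. Circles are KO-higher regions, with the KO pileup over the WT local background, and triangles are WT-higher regions, with the reverse. The solid line is equality, the dashed line 2-fold and the dotted line 4-fold higher in KO. Most circles lie between the dashed and dotted lines, and the highest folds stand at the left, where WT has few tags.

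Mitochondrial oxidation had regions in both directions. KO-higher acetylation lay at 4 of 9 genes, WT-higher H3K27ac at 1 of 9, WT-higher H3K4me1 at 3 of 9, and 3 of 9 had no region. Acadl (chr1:66877413-66909851, minus strand), the long-chain acyl-CoA dehydrogenase, had regions of 4 marks. KO-higher H3K27ac lay at 2398 and 17986 bp, with 63 and 21 tags against 19.3 and 5.95 and folds of 3.15 and 3.16. KO-higher H3K9ac lay at 1402 and 6500 bp, with 72.2 and 20.8 tags against 26 and 3.0 and folds of 2.71 and 5.44. WT-higher H3K4me3 at 13671 bp had 15 tags against 1.96 (fold 5.40), and WT-higher H3K4me1 at -17649 bp had 20 tags against 2.35 (fold 6.27). The 2 methyl marks thus differed toward WT at other places than the acetyl marks did toward KO, and from few tags. Acadl RNA was higher in KO in the authors' deposited table, with a log2 fold change of 0.34 (FDR 2.76e-04).

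Acadm, the medium-chain acyl-CoA dehydrogenase (chr3:153585321-153607596, minus strand), had no KO-higher region. In an intron at about the same place, 8766 and 8688 bp from the start, WT-higher H3K27ac had 35.7 tags against 10 (fold 3.34) and WT-higher H3K4me1 had 29 against 9.40 (fold 2.89). These overlapped. Acadm RNA was lower in KO in the authors' deposited table, with a log2 fold change of -0.29 (FDR 0.0111). Acadm was the only fatty acid gene with WT-higher regions of both H3K27ac and H3K4me1. Acadvl, the very-long-chain enzyme (chr11:69823685-69828913, minus strand), had a single region, WT-higher H3K4me1 in an exon at 1076 bp with 53 tags against 30.8 and a fold of 1.70. The region stood near the authors' cutoff, with a -log10 q of 1.31. Acadvl RNA was higher in KO in the authors' deposited table, with a log2 fold change of 0.71 (FDR 3.84e-14). WT-higher H3K4me1 thus stood beside higher RNA in KO here, as at Cpt1a and Acadl. The genes with RNA values were chosen by such a region, so the direction of the mark was set by that choice.

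Hadh (chr3:130936337-130975019, minus strand), the hydroxyacyl-CoA dehydrogenase for short chains, had 5 KO-higher H3K27ac regions at -13336, -12220, 4747, 9715 and 21180 bp. KO had 58, 92, 93, 132 and 107 tags against 21.4, 53.6, 29.8, 59.5 and 61.5 in WT. The folds were 2.63, 1.70, 3.06, 2.2 and 1.73, and an H3K9ac region at 6372 bp had 37 tags against 13 (fold 2.72). The regions of Hadh thus spread over introns and upstream sequence. Hadhb, the thiolase subunit of the trifunctional protein (chr5:30481788-30511133, plus strand), had a pair of overlapping regions in an intron. H3K27ac was 72 tags against 22.8 (fold 3.06) and H3K9ac 35.2 against 9.0 (fold 3.62). Decr1, the dienoyl-CoA reductase needed for unsaturated chains, had KO-higher H3K27ac at 5621 and 7430 bp, with 27 and 34 tags against 6.70 and 7.94 and folds of 3.64 and 3.92. Hadha, Acads and Acadsb had no region. Hadha and Hadhb encode subunits of the same protein and start side by side, and the KO-higher regions of this pair lie within Hadhb.

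**Figure D4:**
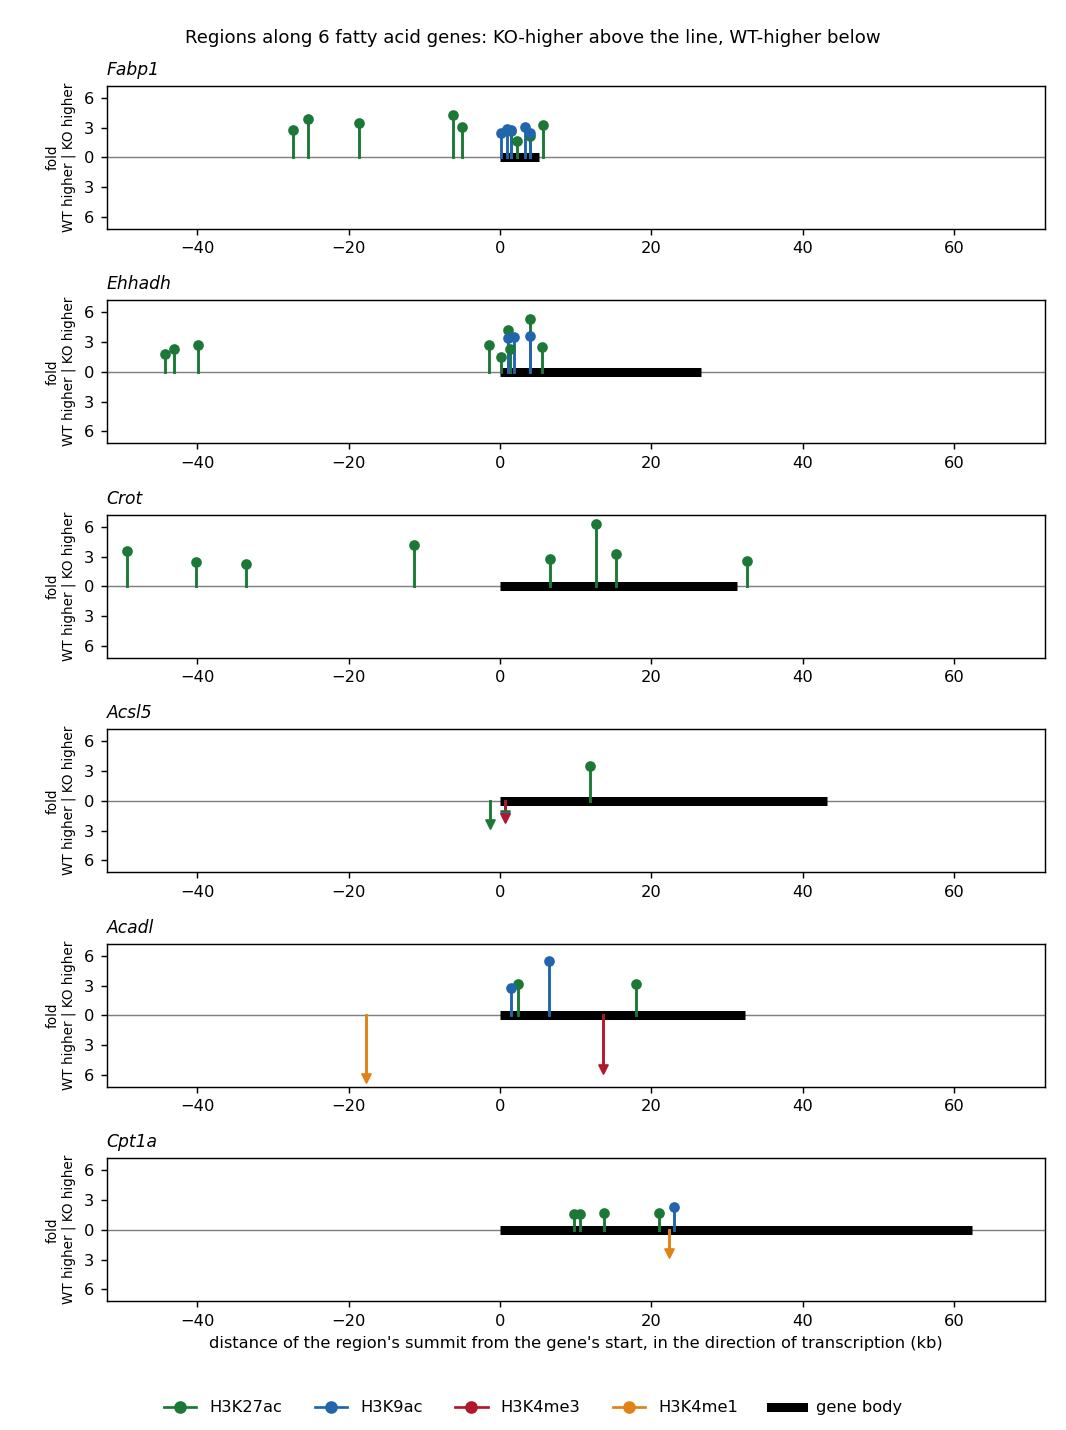
Regions along 6 fatty acid genes by the distance of their summit from the gene's start, in kb in the direction of transcription, with the black bar as the gene body. Stems above the line are KO-higher and stems below it WT-higher, with the authors' fold as height and the mark as colour. Fabp1, Ehhadh and Crot have stems only above the line, while Acsl5 has WT-higher stems at its start and a KO-higher stem at 11937 bp.

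In electron transfer, Etfb alone of 3 genes had regions. It encodes the beta subunit of the flavoprotein that takes electrons from the acyl-CoA dehydrogenases (chr7:50699478-50713170, plus strand). H3K27ac at 1142, 6461 and 9379 bp was 88, 42 and 147 tags in KO against 32.7, 22.8 and 90.3 in WT, with folds of 2.64, 1.81 and 1.62. H3K9ac at 9393 bp was 65 tags against 26 (fold 2.45) and overlapped the last of these. Etfa, the partner subunit, and Etfdh, which passes the electrons to ubiquinone, had no region.

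Peroxisomal oxidation had regions at 4 of 7 genes, all KO-higher and all acetylation. Ehhadh (chr16:21761360-21787917, minus strand) encodes the bifunctional hydratase and dehydrogenase of the peroxisome and is a classical PPARα target. Its 9 H3K27ac regions lay at -44229, -43098, -39938, -1418, 175, 1000, 1375, 3960 and 5612 bp. KO had 74, 84, 113, 76, 119, 74, 38, 74 and 70 tags against 39.7, 36.7, 41.7, 27.8, 77.4, 16.9, 16, 13.2 and 27.8 in WT. The folds were 1.84, 2.25, 2.67, 2.68, 1.53, 4.20, 2.29, 5.29 and 2.47. They form a cluster far upstream and another around the start, and the intronic places at 1000 and 3960 bp differed most. H3K9ac regions at 1036, 1816 and 3926 bp had 59.6, 37 and 38.8 tags against 17, 10 and 10, with folds of 3.37, 3.46 and 3.62. All 3 shared bases with H3K27ac regions of the cluster around the start, and none lay in the upstream cluster.

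Crot (chr5:8966033-8997324, minus strand), the carnitine octanoyltransferase that lets shortened chains leave the peroxisome, had 8 H3K27ac regions and no other mark. They lay at -49250, -40127, -33609, -11330, 6653, 12701, 15390 and 32665 bp. KO had 76, 76, 94, 36, 43, 25, 47 and 19 tags against 20.8, 30.8, 41.7, 7.94, 14.9, 3.15, 13.9 and 6.95 in WT. The folds were 3.53, 2.42, 2.23, 4.14, 2.77, 6.26, 3.22 and 2.52, and 6.26 was the highest among the KO-higher regions at the fatty acid genes. Around the summits with folds of 6.26, 4.14 and 3.53, 86.1%, 67.7% and 62.5% of the 50-base words were unique. Not all reads there can be placed with certainty, and their part in these folds was not tested. The region at -49250 bp was also the one closest to the 50 kb limit from inside. The nearest outside it was a KO-higher H3K9me3 region at -55441 bp from Acsl1, with a fold of 2.76.

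Acaa1b (chr9:119057141-119066211, minus strand), a peroxisomal thiolase, had H3K27ac at -923, 293, 1112 and 1765 bp, with 64, 122, 132 and 116 tags in KO. WT had 18.9, 79.4, 73.4 and 31.8, and the folds were 3.27, 1.53, 1.79 and 3.57. H3K9ac at 963 bp, with 93.9 tags against 49 (fold 1.90), overlapped the region at 1112 bp. The close copy Acaa1a had a single region, KO-higher H3K9ac at 1078 bp with 80.4 tags against 43 and a fold of 1.85. All 50-base words around this summit were unique, and of the Acaa1b windows 1 had fewer than all words unique (96.0%), so reads of this length separate the copies at nearly every base of the windows. Decr2, Acot8 and Pex11a, the last a factor in peroxisome division, had no region by the rule used. A KO-higher H3K27ac region with a fold of 2.81 inside Pex11a lies nearest to the start of Plin1.

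Of the thioesterases outside the peroxisome, which split acyl-CoA into fatty acid and coenzyme A, 2 of 3 had KO-higher acetylation. Acot12 (chr13:91881117-91925753, plus strand), a cytosolic enzyme, had H3K27ac at -878, 19372, 23096 and 27425 bp, with 73, 125, 126 and 49 tags in KO. WT had 22.8, 56.6, 39.7 and 18.9, the folds were 3.11, 2.19, 3.12 and 2.52, and H3K9ac at 1203 bp was 45.2 against 11.2 (fold 3.77). Acot1 (chr12:85350448-85358621, plus strand), also cytosolic, had H3K27ac at 1352, 5338, 6622, 8675 and 10992 bp, with 52, 69, 59, 58 and 185 tags in KO. WT had 17.3, 24.8, 24.8, 18.9 and 97.2 tags, with folds of 2.90, 2.71, 2.33, 2.97 and 1.89. H3K9ac at 11009 bp was 84.9 tags against 35 (fold 2.39). Acot1 belongs to a family of tandem copies on chromosome 12, and 24.3% of the 50-base words around the H3K27ac summit at 10992 bp and 27.1% around the H3K9ac summit at 11009 bp were unique. Reads at that place cannot be assigned with certainty to Acot1 rather than a copy. Around the H3K27ac summits at 1352, 6622 and 8675 bp, 78.9%, 68.1% and 51.8% of the words were unique. Not all reads there can be placed with certainty either, while all words around the summit at 5338 bp were unique. Acot2, the mitochondrial copy, and Fgf21 had no region.

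Over the steps, KO-higher acetylation of either mark lay at 4 of 5 genes of uptake and binding, 3 of 3 of activation, 3 of 4 of the shuttle, 4 of 9 of mitochondrial oxidation, 1 of 3 of electron transfer, 4 of 7 of the peroxisome and 2 of 3 of the other thioesterases. That is 21 of 35 genes (60.0%, all genes 12.2%). WT-higher acetylation lay at 3 of 35 (8.57%, all genes 12.7%), in activation and mitochondrial oxidation. The steps hold 1 to 9 genes each, and no difference between steps was tested. Median KO-higher H3K27ac folds were 2.76 for uptake and binding, 2.44 for activation and 3.06 for mitochondrial oxidation. They were 2.67 for the peroxisome and 2.71 for the other thioesterases, against 1.74 for the shuttle and 1.81 for electron transfer. Of the 7 shuttle regions 4 were at Cpt1a, and the electron transfer regions were all at Etfb. The regions inside Cpt1a but nearest to the start of Mtl5 are not in the shuttle median.

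Of the fatty acid genes, 4 stand in the authors' RNA table, which covers 1450 genes near H3K4me1 regions. Its RNA libraries are not samples of this series, so whether they match this chromatin in age and tissue was not checked. At an FDR under 0.05 in the authors' deposited table, 3 of the 4 were higher in KO, against 5.31% of its genes, and 1 was lower, against 10.2%. Cpt1a was higher, with a log2 fold change of 0.23 (FDR 0.0354) in the authors' deposited table, beside Acadl and Acadvl given above. The table's genes were chosen by a WT-higher H3K4me1 region nearby, so all 4 have such a region, and the RNA of the other fatty acid genes was not analysed here.

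The AGGTCA repeat was searched for on both strands in 300 bases around each summit. The strict repeat known as DR1, AGGTCA followed by 1 base and AGGTCA again, stood in 0 of 81 KO-higher H3K27ac windows of the fatty acid genes and in 0.113% of all windows of that list. A relaxed form, NGGNCA followed by 1 base and AGGNCA, which contains the strict one, stood in 3 of 81 (3.70%, all windows 1.64%) and in 1 of 23 H3K9ac windows (4.35%, all windows 1.38%). The single element AGGTCA is part of the strict repeat but not of every relaxed match. It stood in 18 of 81 H3K27ac windows (22.2%, all windows 20.4%) and in 8 of 23 H3K9ac windows (34.8%, all windows 19.6%). The repeat with 4 bases between the copies of AGGTCA, known as DR4, stood in 0 of 81 (all windows 0.0282%). The counts of the repeats are small, and the single element was about as frequent in the H3K27ac windows as in the whole list.

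The matches to the relaxed repeat lay at genes of uptake and of the peroxisome, and are shown for that reason. They are 150-base windows on the plus strand of mm9, outside exons, at Fabp2 (upstream, summit at -16459 bp, chr3:122581422-122581571), Fabp1 (intron, chr6:71153849-71153998) and Acaa1b (upstream, summit at -923 bp, chr9:119067086-119067235). Capitals mark the match.
Fabp2: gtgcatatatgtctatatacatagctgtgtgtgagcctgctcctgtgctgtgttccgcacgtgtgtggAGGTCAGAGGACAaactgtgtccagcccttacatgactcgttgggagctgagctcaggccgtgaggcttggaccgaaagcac
Fabp1: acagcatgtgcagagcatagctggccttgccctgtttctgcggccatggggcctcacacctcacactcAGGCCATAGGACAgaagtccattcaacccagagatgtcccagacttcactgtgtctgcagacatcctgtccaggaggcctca
Acaa1b: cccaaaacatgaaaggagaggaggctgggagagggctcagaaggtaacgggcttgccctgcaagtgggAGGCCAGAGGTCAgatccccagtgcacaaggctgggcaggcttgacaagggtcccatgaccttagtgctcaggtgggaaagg
The Fabp1 match is near the overlapping H3K27ac and H3K9ac regions at 3991 and 3981 bp, and the folds of the H3K27ac regions at the 3 places were 2.69, 2.15 and 3.27. A match is a stretch of letters and not a measured binding site.

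Other genes of the pathway were read in the same way, 65 of 68 listed. KO-higher H3K27ac lay at 25 of 65 (38.5%), KO-higher H3K9ac at 10 (15.4%), WT-higher H3K27ac at 5 (7.69%) and WT-higher H3K4me3 at 17 (26.2%). Both KO-higher shares stood above the 11.5% and 4.0% of all genes. These other genes were chosen with earlier results of these data known, so no conclusion is drawn from the shares. Their WT-higher H3K4me3 share exceeded the 15.2% of all genes, while that of the 35 fatty acid genes stood at 5.71%. This difference was not tested.

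By group, KO-higher H3K27ac lay at 9 of 19 peroxisomal genes, 2 of 10 mitochondrial genes, 0 of 12 further transporters, binding proteins and synthetases, 3 of 8 thioesterases, 4 of 6 ketone body genes and 7 of 10 regulators and droplet genes. Among peroxisomal genes, KO-higher H3K27ac at Eci2, an isomerase, reached a fold of 3.78, and the highest WT-higher folds were at Abcd2 (5.67, H3K4me1) and Eci2 (4.01, H3K4me1). Among mitochondrial genes they were at Acacb (4.34, H3K9ac), which makes the malonyl-CoA that holds back Cpt1a, and Echs1 (3.45), the hydratase, and toward WT at Acad12 (3.17) and Acacb (3.04, H3K4me1). Thioesterases gave Acot6 (7.09, H3K9ac) and, in H3K9me3, Acot9 (4.58), and toward WT Acot7 (3.09) and Acot11 (2.03).

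Ketone body synthesis uses the acetyl-CoA of fatty acid oxidation. Bdh1, which makes hydroxybutyrate, had a KO-higher H3K27ac fold of 2.88, and Oxct1 had a WT-higher H3K4me3 fold of 1.53. Among regulators, Ppara itself had 33 H3K27ac and 13 H3K9ac regions in the KO-higher lists, with folds of up to 6.75 and 7.11. Pdk4, the kinase that turns cells from glucose to fat, had KO-higher H3K9ac up to 7.03 and was the only one of these 65 genes with KO-higher H3K4me3, with folds of 3.78 and 5.27. Plin2, a lipid droplet coat, had 8 H3K27ac and 10 H3K9ac regions in the KO-higher lists, with folds of up to 3.60 and 6.04. Toward WT the highest were Plin2 (3.35, H3K4me1) and Rxra (2.23, H3K27ac). In the further uptake group there were WT-higher regions only, the highest at Fabp6 (2.88, H3K9ac) and Slc27a1 (1.99, H3K4me3). In the authors' deposited table RNA was higher in KO for Acacb (log2 fold change 1.08, FDR 1.64e-09), Plin2 (0.92, FDR 9.25e-29) and Ppargc1a (0.51, FDR 2.84e-06), while Abcd2 (-0.10, FDR 1.0) and Pparg (-0.09, FDR 1.0) did not pass the FDR threshold.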

How the data were processed

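Histone-mark ChIP-seq libraries of WT and KO jejunal epithelium, 1 per mark and genotype, were read from a single end and placed on mm9, according to the labels' protocols. Tools in the submitters' processing notes are Bowtie2 2.2.9, HOMER 3.12, CASAVA 1.8.2 and MACS2 2.1.1. The MACS version in the file headers is 2.0.10.20130419, which was left unresolved. Per the file headers, the authors called regions with the other genotype's library as control, at a q cutoff of 0.05, keeping 1 tag per position and scaling the larger library to the smaller. Values deposited for a region are its pileup (a signal in tags), its fold (a ratio) and -log10 of its p-value and q-value. In the annotated copy of the H3K4me1 list the authors give RNA differences as log2 fold changes, each with an FDR (a p-value adjusted for multiple testing). It was read as KO over WT from the naming of HOMER columns. A further 12 per-library RNA columns, of 6 libraries that are not samples of this series, were not used.

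Of 12 deposited lists, 10 were used (23511 regions), since 2 repeat another. The local background of the other library was computed from fold and pileup with the pseudocount of 1. The Poisson p-value recomputed from both matched the deposited -log10 within 0.05 at 23509 of 23511 regions. Summits were joined to GENCODE protein-coding starts of NCBIM37 (mm9) within 50 kb in Python 3.11.15 (numpy 2.4.6, scipy 1.17.1, pyfaidx 0.9.0.4, matplotlib 3.10.9). On simulated data, 200 of 200 summits were assigned as by a search of all starts, and 200 of 200 planted repeats were found. With 1 library per group no test was made, and counts stand beside the percent of all genes or regions. The members, the other gene lists and the repeats searched were chosen with earlier results of these data known. Every region was given for genes with regions of 2 or more marks or in both directions, and for the 2 genes of each step with the highest fold in each direction. Of other pathway genes, the 2 of each group with the highest fold in each direction are named, and some that met these rules are not reported here. Ppara, Pdk4 and Plin2 region counts, and the windows with the relaxed repeat, were chosen for display after their values were seen. Alternatives were the distance limit, a stricter q, other ways to join regions to genes, base composition, overlap and FDR.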

Additional observations from a re-analysis of the deposited data

How the results depend on the processing

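Of 69 alternative values for the counts, 56 stayed within 1.5 times the main count and 13 did not. The count of 20 genes with KO-higher H3K27ac was 18 to 22 under the distance limits, the stricter q, the gene body rule, starts of every biotype and the omission of near-identical copies, the last chosen after seeing the data. A limit on base composition kept only KO-higher regions as GC-rich as the median WT-higher region of the mark, or richer, and WT-higher regions as GC-poor as the median KO-higher one, or poorer. It left 658 of 7094 KO-higher H3K27ac regions and 7 genes, which were Fabp1, Acsl3, Cpt1a, Hadh, Ehhadh, Acaa1b and Acot12, with 2.29% of all genes left. The same limit left 87 of 1882 KO-higher H3K9ac regions and 0 of 15 genes (all genes 0.371%), 1 of 3 genes with WT-higher H3K27ac, 0 of 1 with WT-higher H3K9ac and 0 of 2 with WT-higher H3K4me3. With -log10 q of at least 5, KO-higher H3K9ac lay at 9 genes (25.7%, all genes 2.75%), WT-higher H3K4me1 at 1 in place of 4, and 7 in place of 12 regions were shared by the acetyl marks. At 100 kb, WT-higher H3K9ac lay at 2 genes and KO-higher H3K9me3 at 1. At 10 kb, WT-higher H3K4me1 lay at 2 genes. With starts of every biotype, WT-higher H3K4me3 lay at 1 gene. At an FDR under 0.01, 0 in place of 1 gene had lower RNA.

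The median GC content was 54.9% in KO-higher and 59.5% in WT-higher H3K27ac regions, and 54.7% and 61.6% in those of H3K9ac. Its part in the direction of the differences was not tested beyond the limit above. No paired analysis was possible because each mark has 1 library per genotype. The depth of each library limits low regions, and differences below the authors' threshold are not listed. All 50-base words were unique in 64 of 81 H3K27ac windows (79.0%, all windows 85.3%) and 21 of 23 H3K9ac windows (91.3%, all windows 86.3%).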

Other observations

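Regions inside a fatty acid gene but nearest to another gene's start were not counted for it. Cpt1a holds 6 such KO-higher H3K27ac regions in its distal part, between 13004 and 27871 bp from the start of Mtl5. KO had 20, 31, 24, 30, 34 and 22 tags there against 5.68, 9.92, 4.61, 8.93, 16.9 and 7.94 in WT, with folds of 3.14, 2.93, 4.46, 3.12, 1.96 and 2.57. These folds are higher than the 1.57 to 1.74 of the regions counted for Cpt1a, at lower tag numbers. Cpt2 holds 1 region with 33 tags against 8.67, and Pex11a 1 with 66 against 22.9.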
